A study of Mus musculus with 32 samples.

Results

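The soleus of mice lacking both Acvr1b and Tgfbr1 in their myofibres was compared with the soleus of control mice by polyA RNA sequencing of whole muscle. The members were the 4 double-knockout (double KO) and the 4 control libraries of this muscle, chosen by the genotype and tissue given for each column of the count table, which makes 8 of the 32 libraries in the series. Of the 55487 genes in the table, 18143 had enough counts to be tested. The double KO mice carried the loss of Acvr1b and of Tgfbr1, the Acvr1b KO and Tgfbr1 KO mice carried 1 of these losses, and the control mice are labelled as control only. Tamoxifen was injected at 6 weeks of age and the left soleus was taken 3 months later, per the labels' protocols, with 4 mice in each genotype. The labels name neither the promoter that drives the recombinase nor the exons that were removed. The 4 double KO mice have animal numbers outside the range of the other genotypes, so a shared cohort and the genotype cannot be told apart.

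ACVR1B (ALK4) and TGFBR1 (ALK5) are type I receptors that pass signals from activins, myostatin and TGF-beta to SMAD2 and SMAD3, and this branch is known for limiting the size of muscle fibres. The soleus is a slow, oxidative postural muscle. Glucocorticoid receptor and FoxO factors, which are known to drive breakdown programmes in muscle, share many target genes there.

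The 8 libraries held 32413723 to 37771660 counts each, and transcripts encoded in mitochondria took 16.4% to 19.3% of them. The libraries matched their tissue label: the slow myosin Myh7 made up 19.9% to 24.1% of the 4 adult myosin heavy chain transcripts in double KO soleus and 21.5% to 28.4% in control soleus, and 0.366% to 0.500% in double KO and 0.552% to 0.839% in control gastrocnemius of the same mice. In bulk muscle, fewer cells of a type and less RNA per cell cannot be told apart.

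One library stood apart from the rest. Among 9722 genes averaging at least 5 CPM (counts scaled to a common library total), double KO 1 had 643 genes more than 2-fold above and 772 more than 2-fold below the median of the other 7 libraries. Each of the other 7 libraries had 18 to 114 genes above and 5 to 91 genes below. The first principal component of the 16 soleus libraries held 29.67% of the variance and placed double KO 1 at 108.3, while the other 15 lay between -9.99 and -3.37. The gastrocnemius library of the same mouse had 155 genes above and 193 below the median of its 7 counterparts, where the others had 68 to 168 and 48 to 131. The comparison with control was therefore made with and without double KO 1.

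**Figure D1:**
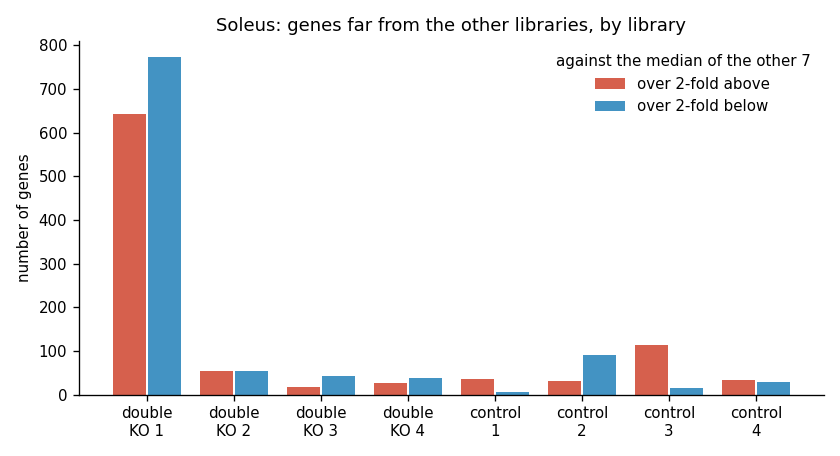
Number of genes (y axis) more than 2-fold above or below the median of the other 7 soleus libraries, for each double KO and control library (x axis), among 9722 genes averaging at least 5 CPM. Double KO 1 has 643 genes above and 772 below, and no other library has more than 114.

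Acvr1b, on chromosome 15 (101174067 to 101213684, plus strand, GRCm38), checked the genotype. Its level was 11.3, 7.42, 8.22 and 10.6 CPM in double KO soleus, against 49.4, 45.1, 31.9 and 49.2 CPM in control soleus. The groups did not overlap, as was the case for 4.13% of all tested genes on the lower and 3.58% on the higher side, and the log2 fold change was -2.22 (SE 0.172, adjusted p = 1.52e-05 by the edgeR quasi-likelihood test with Benjamini-Hochberg adjustment over all tested genes). Tgfbr1, on chromosome 4 (47353222 to 47414931, plus strand), was at 57.6, 15.7, 18.1 and 18.6 CPM in double KO soleus and at 18.5, 18.5, 14.8 and 16.4 CPM in control soleus. Double KO 1 held the high value, and the other 3 double KO libraries lay at the level of the controls (log2 fold change 0.69 with all libraries, adjusted p = 0.435; 0.03 without double KO 1, adjusted p = 0.966; edgeR). Counts over a whole gene do not show whether an exon is missing, so they check nothing of the Tgfbr1 deletion. Of the 13 receptors of the family that were tested, Acvr1b was the only one called.

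Across all genes the soleus changed little in number. With all libraries, 131 of 18143 genes passed an adjusted p of 0.05 (0.722%), of which 40 were higher (0.22%) and 91 lower (0.502%) in the double KO. Without double KO 1, 308 of 18371 passed (1.68%), of which 150 were higher (0.817%) and 158 lower (0.86%). Leaving out 1 library at a time changed the first count to between 64 and 308, with 69 calls without control 2 and 64 without control 4. The second count fell to 113, 91 and 99 without double KO 2, 3 and 4, and to 161 and 144 without control 2 and control 4. Both fits shared 126 genes with the same direction, 40 higher and 86 lower. Only 5 genes were called with all libraries alone, and 182 were called without double KO 1 alone. For these 182 genes double KO 1 itself lay past the controls on the opposite side for 78 genes, inside the control range for 36 and on the same side as the other double KO libraries for 63, and 5 were not tested with all libraries. Of the 126 shared genes, 10 lay within 20 megabases of Acvr1b and 15 within 20 megabases of Tgfbr1, and 2 lay on unplaced scaffolds. Of all 18143 tested genes, 287, 248 and 15 lay in these places, so calls near the 2 loci were more frequent than the 0.722% of all genes.

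**Figure D2:**
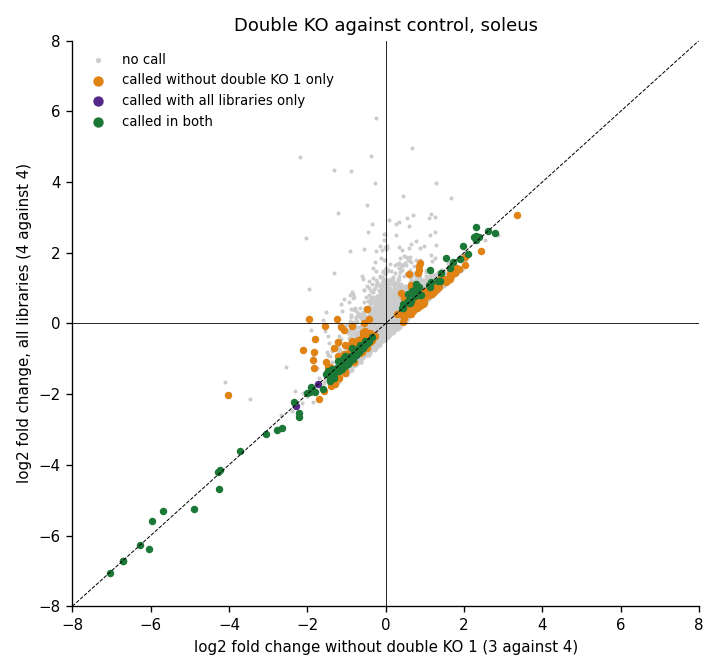
Log2 fold change of double KO against control for each gene with all 8 libraries (y axis) and without double KO 1 (x axis), coloured by the fit in which the gene was called. Genes called in both lie along the dashed line of equal values, while many genes called without double KO 1 alone lie nearer to 0 on the y axis or on its opposite side.

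The falling genes included many that glucocorticoids and FoxO factors are known to induce. Of the 22 tested members of a list of such genes, 6 were lower and 0 higher by edgeR, beside 0.502% of all genes lower. At an unadjusted p below 0.05 there were 12 lower and 1 higher, beside 879 and 1340 of the 18143 tested genes. DESeq2 called 9 lower and limma-voom 15 lower, with 0 higher by both. Here limma-voom weighted libraries by quality and gave double KO 1 a weight of 0.0759. The other soleus libraries had 0.207 to 2.7, so double KO 1 counted for little in every limma-voom result. Over all genes DESeq2 called 228 lower and limma-voom 467 lower. The median log2 fold change of the list was -0.59, where that of all tested genes was 0.04. Without double KO 1, 12 were lower and 0 higher, beside 0.86% of all genes lower, and the median was -0.74. The mean score of the list, in log2 units relative to the control mean, was 0.14, -0.83, -0.75 and -0.66 in double KO 1 to 4, against 0.00, 0.01, -0.10 and 0.09 in control 1 to 4. Double KO 1 was thus at the level of the controls in this score although the 6 called members were low in it as well. That holds for all 86 genes called lower in both fits, so it adds nothing to these calls.

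Fkbp5, a co-chaperone that restrains the glucocorticoid receptor and is induced by it, was at 97.6, 59.0, 74.4 and 84.3 CPM in double KO soleus and at 206, 196, 160 and 247 CPM in control soleus (log2 fold change -1.36, SE 0.200, adjusted p = 0.00503, edgeR). Foxo1, a transcription factor of the atrophy programme, was at 74.2, 53.6, 53.9 and 68.4 CPM in double KO soleus and at 118, 136, 99.6 and 147 CPM in control soleus (-1.002, SE 0.164, adjusted p = 0.00896, edgeR). Klf15, a glucocorticoid-induced regulator of amino acid breakdown, was at 47.1, 49.0, 55.8 and 59.2 CPM in double KO soleus, against 87.5, 95.9, 77.7 and 100 CPM in control soleus (-0.78, SE 0.119, adjusted p = 0.00535, edgeR). In each of these 3 genes all double KO libraries, double KO 1 included, lay below all controls. Double KO 1 did so in 100% of the 86 genes called lower in both fits and in 33.5% of all tested genes. The 3 calls held without any 1 of the 8 libraries. With only double KO and control libraries in the fit, Fkbp5 kept its call. Foxo1 (adjusted p = 0.0595) and Klf15 (adjusted p = 0.0538, edgeR) lost theirs.

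The other 3 called members behaved in the same way. Sesn1, a stress-induced inhibitor of mTORC1, fell by 1.07 on the log2 scale (44.3, 37.1, 36.9 and 36.6 CPM in double KO soleus; 81.8, 74.9, 84.5 and 83.3 CPM in control soleus). Cebpd, a transcription factor of the acute-phase response, fell by 1.05, and the kinase gene Sgk1 fell by 0.70. The calls of Sesn1 and Cebpd held without any 1 library, while Sgk1 had no call when double KO 2, 3 or 4 or any control was left out (adjusted p up to 0.134, edgeR). Tsc22d3 and Per1, well-known members of the list, gave no call: Tsc22d3 had a log2 fold change of -0.03 (adjusted p = 0.97, edgeR) and Per1 a change of -0.16 (adjusted p = 0.675, edgeR). The metallothioneins Mt1 and Mt2 and the cell-cycle inhibitor Cdkn1a were called lower without double KO 1 alone. Cdkn1a was at 322, 49.8, 38.9 and 43.8 CPM in double KO soleus and at 103, 174, 197 and 148 CPM in control soleus, so that double KO 1 was above and the other 3 below every control (log2 fold change -0.45 with all libraries, adjusted p = 0.808; -1.82 without double KO 1, adjusted p = 0.0135; edgeR). Leaving out 1 more library ended the calls of Cdkn1a (double KO 3 or 4, adjusted p up to 0.0773), Mt2 (double KO 2, 3 or 4, 0.083) and Mt1 (those or control 2, 3 or 4, 0.126, edgeR).

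**Figure D3:**
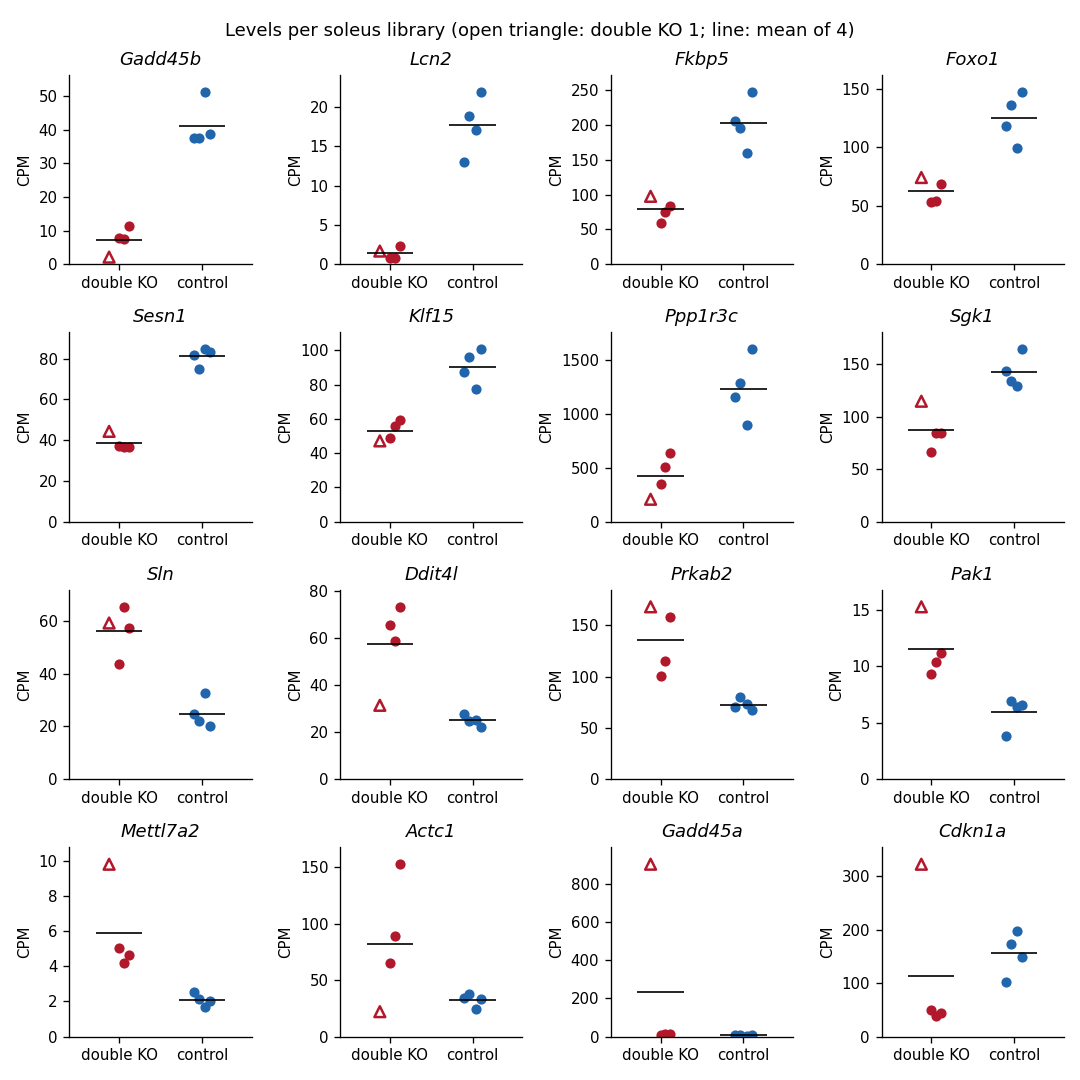
Level in CPM (y axis) of 16 named genes in each double KO and control soleus library; the open triangle is double KO 1 and the line is the mean of 4 libraries. Fkbp5, Foxo1, Sesn1, Klf15, Ppp1r3c and Sgk1 are lower in all 4 double KO libraries, while Gadd45a and Cdkn1a are set apart by double KO 1.

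Stress-inducible and immediate early genes were also among those that fell. Gadd45b, which is known as a SMAD-responsive stress gene, was at 2.15, 7.85, 7.62 and 11.3 CPM in double KO soleus and at 37.6, 37.5, 51.2 and 38.7 CPM in control soleus (log2 fold change -2.52, SE 0.354, adjusted p = 0.00453, edgeR). The call of Gadd45b was lost with only double KO and control libraries in the fit (adjusted p = 0.0689, edgeR). Its relative Gadd45a went the other way in value: 903, 10.4, 12.8 and 13.1 CPM in double KO soleus and 9.63, 6.54, 5.33 and 8.78 CPM in control soleus, with no call (4.96, adjusted p = 0.0794 with all libraries; 0.67, adjusted p = 0.248 without double KO 1; edgeR). The groups did not overlap for Gadd45a, but 1 library set the size of the change. Of 25 tested immediate early genes, 2 were lower and 0 higher by edgeR, beside 0.502% of all genes lower. They were the mRNA-decay factor Zfp36 (-1.34) and the transcription factor Maff (-1.30). At an unadjusted p below 0.05, 11 were lower and 1 higher, beside 879 and 1340 of the 18143 tested genes. DESeq2 and limma-voom each called 5 lower and 0 higher, beside 228 and 467 of all genes lower. Without double KO 1, 4 were lower, beside 0.86% of all genes lower. The list's median was -0.59 with all libraries and -0.60 without double KO 1, and Fos (-1.21, adjusted p = 0.194), Egr1 (-1.33, adjusted p = 0.343) and Nr4a1 (-1.09, adjusted p = 0.31) gave no call by edgeR. The score of this list was -0.51, -0.45, -0.62 and -0.77 in double KO 1 to 4 and -0.28, -0.12, 0.66 and -0.26 in control 1 to 4, so control 3 was high.

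Among genes whose control mean reached 5 CPM, large falls outside these lists were found in genes of several kinds. Lcn2, the iron-binding lipocalin of the acute phase, was at 1.68, 0.785, 0.867 and 2.39 CPM in double KO soleus and at 12.96, 18.8, 17.1 and 21.9 CPM in control soleus (log2 fold change -3.62, SE 0.597, adjusted p = 0.0091, edgeR). Ppp1r3c, a glycogen-targeting subunit of protein phosphatase 1, was at 209, 355, 506 and 642 CPM in double KO soleus and at 1160, 1294, 895 and 1602 CPM in control soleus (-1.53, adjusted p = 0.0206, edgeR). Lcn2 was the 1 called gene among 8 tested neutrophil and acute-phase markers with all libraries (0.502% of all genes lower), and 1 was called lower without double KO 1 (0.86%). The groups did not overlap for Lcn2 or Ppp1r3c, as the rule for naming them required, and double KO 1 was the lowest library for Ppp1r3c. Leaving out double KO 2, control 2 or control 4 ended the call of Ppp1r3c (adjusted p up to 0.0815, edgeR). Further falls were found for the calcium sensor Doc2b (-1.81), the receptor Gprc5a (-1.54), the matrix protein Tinagl1 (-1.49), Apold1 (-1.28) and Slc4a8 (-1.53), a bicarbonate transporter that lies within 20 megabases of Acvr1b. Leaving out double KO 3, double KO 4, control 2 or control 3 ended that of Gprc5a (adjusted p up to 0.0837, edgeR). Among genes chosen after their values were seen, the survival factor Bcl2l1 (-1.28), the stress gene Tiparp (-1.27), the interleukin 6 receptor Il6ra (-1.07), the NF-kappaB inhibitor Nfkbia (-0.9986), the thin-filament protein Lmod2 (-0.85) and the phosphatidate phosphatase Lpin1 (-0.77) were called lower both with and without double KO 1 by edgeR. Called members of further lists were lower in both fits too. With all libraries, the clock repressor Nfil3 (-1.18) was the 1 call among 19 circadian clock genes. The lipid regulator Ppara (-1.01) was the 1 call among 30 mitochondrial biogenesis and oxidative regulators. The lipid-droplet protein Plin4 (-0.89) was the 1 call among 35 fatty acid genes, where 0.722% of all genes were called. Some lost their calls when another library was left out: Nfkbia without any of the other 7 (adjusted p up to 0.0962), Ppara without double KO 2 or 3 or control 2 or 4 (0.142), Plin4 without double KO 2 or 3 or any control (0.151), Lmod2 without double KO 2, 3 or 4 or control 2, 3 or 4 (0.11), and Lpin1 without double KO 2, 3 or 4 or control 1, 2 or 4 (0.172, edgeR).

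Promoters of called genes were searched for 4 motifs in the 250 bases before each RefSeq start (GRCm38.p6), on both strands. The table held a promoter for 55 of the 86 genes lower in both fits, for 30 of the 40 higher ones and for 11123 of the tested genes. The palindromic glucocorticoid response element, GNACA and TGTNC with any 3 bases between them, was in 2 of the 55 (3.64%), Sgk1 and Tinagl1, in 0 of the 30, and in 0.387% of the tested genes and of all 32851 promoters. The cAMP response element TGACGTCA was in 2 of the 55 (3.64%), Lrrc8a and Maff, in 1 of the 30 (3.33%), Pak1, in 2.84% of the tested genes and in 1.55% of all promoters. The FoxO site TGTTTAC was in 3 of the 55 (5.45%), 8430426J06Rik, Kiz and Nek10, in 0 of the 30 and in 2.81% of the tested genes. The SMAD palindrome GTCTAGAC was in 0 of the 55, in 0 of the 30 and in 0.234% of the tested genes. These motifs stood in 3.17% and 0.167% of all promoters, in that order. Promoters of 4 named genes that hold a match, Sgk1, Tinagl1, Maff and Pak1, are given here 5′ to 3′ towards the start, with the motif in capitals. That of Nek10, a gene named further below, is not shown. A match is a description of letters and not a site of binding. Sgk1 is at chr10:21993640-21993889 on the plus strand, where the match begins 188 bases before this start, 1 of several that RefSeq gives. Tinagl1 is at chr4:130174803-130175052 on the minus strand with the match 147 bases before the start, Maff at chr15:79347270-79347519 on the plus strand with the match 29 bases before it, and Pak1 at chr7:97788291-97788540 on the plus strand with matches 234 and 182 bases before it.
Sgk1: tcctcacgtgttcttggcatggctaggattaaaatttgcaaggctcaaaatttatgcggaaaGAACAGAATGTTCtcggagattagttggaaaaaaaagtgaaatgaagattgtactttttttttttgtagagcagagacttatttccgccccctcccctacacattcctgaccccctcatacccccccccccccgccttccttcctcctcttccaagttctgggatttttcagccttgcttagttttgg
Tinagl1: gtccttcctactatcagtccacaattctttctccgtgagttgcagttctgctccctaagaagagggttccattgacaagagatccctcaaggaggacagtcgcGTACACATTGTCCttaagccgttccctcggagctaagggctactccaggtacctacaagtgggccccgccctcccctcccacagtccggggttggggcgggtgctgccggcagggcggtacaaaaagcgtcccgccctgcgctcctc
Maff: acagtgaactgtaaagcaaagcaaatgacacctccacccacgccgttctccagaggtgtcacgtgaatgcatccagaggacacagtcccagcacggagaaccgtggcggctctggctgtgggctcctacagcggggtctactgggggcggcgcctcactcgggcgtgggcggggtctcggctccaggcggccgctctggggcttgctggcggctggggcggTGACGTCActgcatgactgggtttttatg
Pak1: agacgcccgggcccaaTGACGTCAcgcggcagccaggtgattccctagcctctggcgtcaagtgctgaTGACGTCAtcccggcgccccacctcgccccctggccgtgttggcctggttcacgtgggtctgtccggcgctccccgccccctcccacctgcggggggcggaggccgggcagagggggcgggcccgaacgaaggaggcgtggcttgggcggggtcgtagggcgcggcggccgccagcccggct

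Among the genes called in both fits, fewer were higher than lower, 40 against 86. This balance depended on threshold and tool. At an unadjusted p below 0.05 with all libraries, 1340 were higher and 879 lower. With all libraries limma-voom, in which double KO 1 had little weight, called 522 higher and 467 lower, and DESeq2 182 higher and 228 lower. Sln encodes sarcolipin, a small inhibitor of the SERCA calcium pump. It was at 59.1, 43.6, 65.3 and 57.1 CPM in double KO soleus and at 24.5, 21.9, 32.6 and 20.1 CPM in control soleus (log2 fold change 1.18, SE 0.178, adjusted p = 0.00535, edgeR). Ddit4l, an inhibitor of mTORC1 signalling, was at 31.4, 65.4, 58.9 and 73.2 CPM in double KO soleus and at 27.7, 24.8, 25.3 and 22.1 CPM in control soleus (1.20, SE 0.200, adjusted p = 0.0101, edgeR). For Ddit4l the 3 libraries other than double KO 1 were high and double KO 1 lay just above the highest control. Prkab2, a regulatory subunit of the energy sensor AMPK, was at 168, 100.8, 115 and 158 CPM in double KO soleus and at 69.9, 79.8, 72.9 and 67.8 CPM in control soleus (0.90, SE 0.171, adjusted p = 0.0194, edgeR). The calls of Sln and Ddit4l held without any 1 library, and Prkab2 had no call when double KO 4, control 1, control 3 or control 4 was left out (adjusted p up to 0.0833, edgeR). With only double KO and control libraries in the fit, Prkab2 and Ddit4l lost their calls (adjusted p = 0.13 for Ddit4l, edgeR).

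Other rises called in both fits were those of the kinase Pak1 (0.96), the sorting receptor Sort1 (0.87), the guanine exchange factor Prex1 (1.11) and the ferredoxin reductase Fdxr (0.89). The calcium sensor Ncs1 (0.82), the ubiquitin ligase Trim13 (0.81), Ypel2 (0.92), Cxxc5 (1.21) and Mettl7a2 (1.501) were called in both fits too, all as log2 fold changes. Mettl7a2 kept its call without any 1 library but lost it with only double KO and control libraries in the fit (adjusted p = 0.117, edgeR). Calls were lost without control 3 or 4 for Pak1 (adjusted p up to 0.057), control 2 or 4 for Sort1 (0.0574), control 2 or 3 for Trim13 (0.0617), control 2, 3 or 4 for Ypel2 (0.142), any control for Fdxr (0.0778) and Ncs1 (0.115), double KO 2 or any control for Prex1 (0.155), and double KO 3 or control 2, 3 or 4 for Cxxc5 (0.0735, edgeR). Smad9, a SMAD of the BMP branch, was called higher (2.60, adjusted p = 0.0412, edgeR) at levels of 0.434 to 0.867 CPM in double KO soleus and 0.0278 to 0.194 CPM in control soleus. Leaving out double KO 2, 3 or 4 or control 2, 3 or 4 ended this call (adjusted p up to 0.143, edgeR). It was the 1 call among 13 tested BMP targets, beside 0.22% of all genes higher, and 1 was called higher without double KO 1 as well (0.817% of all genes). Id1 (0.50, adjusted p = 0.631), Id2 (2.16, adjusted p = 0.186) and Id3 (1.41, adjusted p = 0.18) gave no call by edgeR. Of 21 tested TGF-beta and activin targets 0 were called with all libraries by edgeR, beside 0.722% of all genes. Among them 3 were higher and 1 lower at an unadjusted p below 0.05, beside 1340 and 879 of the 18143 tested genes. DESeq2 called 1 higher, beside 182 of all genes. By limma-voom 1 was higher and 2 were lower, beside 522 and 467 of all genes. Cdkn1a was the 1 called without double KO 1, beside 1.68% of all genes.

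Some of the genes that rose had higher levels in control gastrocnemius than in control soleus. Of the 40 genes higher in both fits, 14 (35%) had a mean level in control gastrocnemius more than 2-fold above that in control soleus, where 4.46% of all tested genes did. Among the 86 lower genes the share was 3.49%. Prkab2 averaged 484 CPM in control gastrocnemius and 72.6 CPM in control soleus, Sort1 122 and 14.9 CPM, and Pak1 28.9 and 5.92 CPM. Of the 110 genes higher without double KO 1 alone, 20 (18.2%) were more than 2-fold lower in control gastrocnemius, beside 14.5% of the genes tested in that fit. Another 28 (25.5%) were more than 2-fold higher there, beside 4.49%. They included Ky, a Z-disc protein, at 9.15, 66.0, 49.2 and 79.1 CPM in double KO soleus and 21.9, 16.2, 20.9 and 11.3 CPM in control soleus (log2 fold change 1.53, adjusted p = 0.185 with all libraries; 1.88, adjusted p = 0.0135 without double KO 1; edgeR). Actc1, cardiac actin, was at 22.04, 65.4, 89.2 and 153 CPM in double KO soleus and 33.95, 37.5, 24.3 and 33.1 CPM in control soleus (1.35, adjusted p = 0.142 with all libraries; 1.67, adjusted p = 0.00753 without double KO 1; edgeR). In both genes double KO 1 lay below every control and the other 3 double KO libraries above every control. Without double KO 1, the call of Actc1 held when 1 more library was left out, and that of Ky was lost without double KO 4 (adjusted p = 0.0617, edgeR).

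A list of 6 markers of a fast neighbouring muscle (Myh4, Actn3, Pvalb, Mylk4, Pfkfb1 and Tbx15) had no call. Its score was -0.40, 0.22, 0.86 and 1.38 in double KO 1 to 4, against 0.01, 0.64, 0.02 and -0.67 in control 1 to 4. 0 members were called by edgeR, with or without double KO 1, or by DESeq2 or limma-voom. At an unadjusted p below 0.05, 1 was higher, beside 1340 of the 18143 tested genes, and the groups overlapped. Across double KO 1 to 4, Actc1 followed the same order as this score, while Sln, Ddit4l and Prkab2 did not. Ppp1r3c, which was lower in the double KO, followed this order as well. An order of 4 libraries that rising and falling genes share does not show the source of a rise. How far neighbouring fast tissue or fibre makeup contributed to the rise of Actc1, Sln, Ddit4l, Prkab2 or other genes was not tested.

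The shares of the 4 adult myosin heavy chains were taken from transcripts of whole muscle, and fibres were not counted. Myh4, the fastest isoform, made up 8.19%, 11.9%, 20.8% and 28.6% of them in double KO soleus and 5.43%, 12.4%, 8.34% and 2.68% in control soleus. The means were 17.4% ± 9.2 and 7.22% ± 4.2 (SD, n = 4 each; 2-sided exact permutation test, p = 0.143, where the smallest possible p is 0.0286). The Myh2 share was 37.2% ± 7.9 in double KO soleus and 43.1% ± 3.3 in control soleus (exact permutation p = 0.143, n = 4 each). The Myh7 share was 21.6% ± 1.8 in double KO soleus and 24.03% ± 3.1 in control soleus (exact permutation p = 0.2, n = 4 each). The Myh1 share was 23.9% ± 14.7 in double KO soleus, where double KO 1 had 45.3% and the others 13.2% to 21.6%, and 25.7% ± 2.4 in control soleus (exact permutation p = 0.857, n = 4 each). With all libraries none of the 4 shares differed beyond the spread between libraries, and the difference for Myh1 changed sign when double KO 3 or 4 was left out. Without double KO 1 the Myh1 share was lower by 8.895 percentage points. All remaining double KO libraries then lay below every control (22.15% to 27.25%). The exact permutation p was 0.0571, the smallest possible for 3 against 4.

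**Figure D4:**
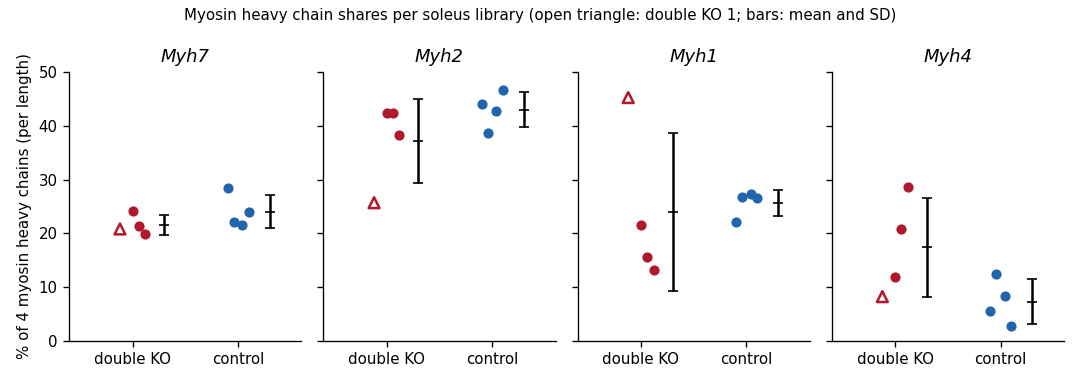
Share (%, y axis) of each of 4 myosin heavy chains in their summed transcripts per gene length, for each double KO and control soleus library; the open triangle is double KO 1 and bars are mean and SD. The groups overlap in all 4 panels, Myh4 reaches 28.6% in double KO 4 and Myh1 reaches 45.3% in double KO 1.

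Most programmes of the fibre gave no call with all libraries. Among 18 slow-fibre and 18 fast-fibre contractile genes, 80 nuclear-encoded respiratory chain genes, 30 genes of the TCA cycle, 47 proteasome genes, 18 atrophy-related ubiquitin ligases, 78 cytosolic ribosomal protein genes and 32 collagen and matrix genes, 0 were called with all libraries by edgeR, where 0.722% of all genes were. At an unadjusted p below 0.05, 6 slow-fibre genes, 1 fast-fibre gene, 1 respiratory chain gene, 2 TCA cycle genes, 1 ubiquitin ligase and 2 matrix genes were lower, and 2 fast-fibre genes, 1 proteasome gene, 2 ubiquitin ligases and 1 ribosomal protein gene were higher. Over all 18143 tested genes, 879 were lower and 1340 higher at that threshold. DESeq2 called 2 slow-fibre genes and 1 fast-fibre gene lower, beside 228 of all genes. By limma-voom 3 slow-fibre genes, 1 fast-fibre gene, 1 TCA cycle gene, 1 ubiquitin ligase and 1 matrix gene were lower, and 2 fast-fibre genes and 1 TCA cycle gene higher. Over all genes limma-voom called 467 lower and 522 higher. When double KO 1 was left out, edgeR called 1 slow-fibre gene lower and 1 TCA cycle gene higher in these lists, beside 1.68% of all genes. The 4 double KO libraries lay below the 4 controls for 19 of the 80 respiratory chain genes and 7 of the 18 slow-fibre genes, where 4.13% of all genes did so, and double KO 1 was the lowest library in the scores of both lists. The ubiquitin ligases of atrophy had log2 fold changes of 0.83 for Fbxo32 (adjusted p = 0.251) and 0.18 for Trim63 (adjusted p = 0.913) by edgeR. Fbxo32 was at 1200, 446, 423 and 564 CPM in double KO soleus and at 477, 323, 275 and 406 CPM in control soleus. Double KO 1 set this difference. Mb, the oxygen store myoglobin, was called without double KO 1 alone (-0.52, adjusted p = 0.0467, edgeR), at 5226, 5620, 6839 and 6483 CPM in double KO soleus and 8636, 8136, 10010 and 9484 CPM in control soleus. Its groups did not overlap, but the call was lost when any 1 of the other 7 libraries was left out (adjusted p up to 0.218, edgeR).

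Of the ligands, Mstn (myostatin) was at 3.98, 3.41, 7.50 and 14.4 CPM in double KO soleus and at 3.11, 4.06, 5.75 and 1.55 CPM in control soleus (1.02, adjusted p = 0.493, edgeR). The groups overlapped. Inhba, the activin A subunit, was at 0.732, 2.69, 4.87 and 4.12 CPM in double KO soleus and at 1.55, 1.40, 1.86 and 1.49 CPM in control soleus. It was called without double KO 1 alone (1.299, adjusted p = 0.0192, edgeR), and double KO 1 lay below every control. Leaving out double KO 3, double KO 4, control 2 or control 4 as well ended this call (adjusted p up to 0.122, edgeR).

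Among the 8 soleus libraries double KO 1 differed most in several lists. Its score for 24 genes of denervation and the neuromuscular junction was 1.70, against -0.03, 0.11 and 0.09 in the other double KO libraries and -0.09 to 0.07 in control soleus. Runx1 was at 199 CPM in it and at 3.71 to 7.27 CPM in the other 7 libraries, the myogenic factor Myog at 52.3 CPM against 2.28 to 2.86 CPM, and the acetylcholine receptor subunit Chrna1 at 111 CPM against 23.9 to 39.2 CPM. The same library had a score of 1.41 for ribosome biogenesis genes (others -0.11 to 0.05), -1.57 for slow-fibre contractile genes (others -0.22 to 0.09) and -0.69 for respiratory chain genes (others -0.22 to 0.07). Its RNA came from a sample with a RIN above 7.7, as did all. In gastrocnemius the denervation score was 1.39 in the library of the same mouse, 0.63 to 0.70 in the other 3 double KO libraries and -0.09 to 0.04 in control libraries. The slow-fibre score there was -1.16 in the library of the same mouse, -0.66 to -0.34 in the other double KO libraries and -0.18 to 0.22 in control libraries. The same mouse thus had the highest denervation and lowest slow-fibre score in both muscles, and whether its state belongs to the genotype was not tested. Without double KO 1, 2 of the 24 denervation and neuromuscular junction genes were called lower and 0 higher, beside 0.86% and 0.817% of all genes. They were Chrna1 (-0.48, adjusted p = 0.0477) and Musk (-1.15, adjusted p = 0.0127, edgeR). The median log2 fold change of the list was 0.08 in that fit. The calls were lost when double KO 2 or 3 was left out as well (adjusted p up to 0.199 for Chrna1 and 0.0723 for Musk), and for Chrna1 also without double KO 4 or control 1, 2 or 4 (edgeR).

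**Figure D5:**
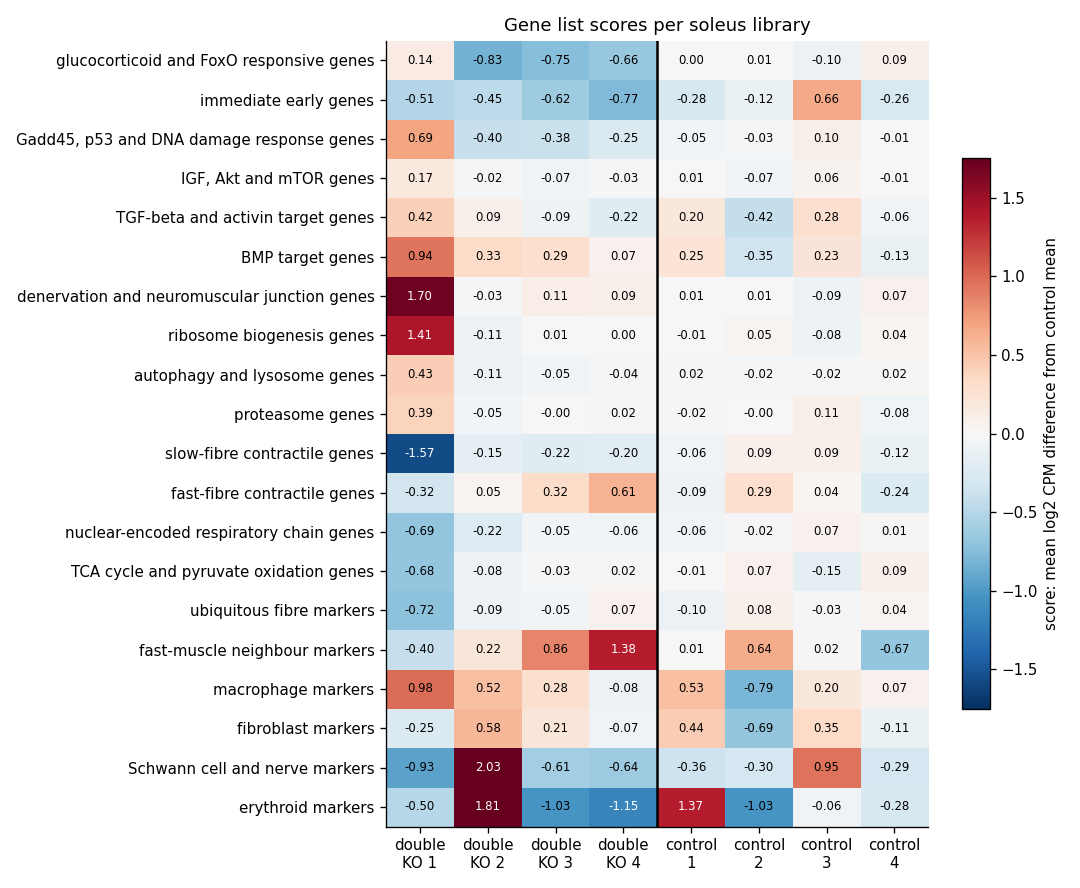
Score of 20 gene lists (rows) in each soleus library (columns, double KO left of the line and control right), as the mean over members of log2 CPM minus the control mean. The glucocorticoid and FoxO score lies between -0.83 and -0.66 in double KO 2 to 4, while double KO 1 stands out in denervation (1.70), ribosome biogenesis (1.41) and slow-fibre genes (-1.57). Colours stop at the ends of the bar, and the printed numbers run past it in double KO 2.

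Markers of other cell types varied between libraries. The Schwann cell and nerve score of 12 tested markers was -0.93, 2.03, -0.61 and -0.64 in double KO 1 to 4 and -0.36, -0.30, 0.95 and -0.29 in control 1 to 4, so double KO 2 was the highest library. The erythroid score reached 1.81 in double KO 2 and 1.37 in control 1. The macrophage score was 0.98, 0.52, 0.28 and -0.08 in double KO 1 to 4 and 0.53, -0.79, 0.20 and 0.07 in control 1 to 4. None of the tested markers of macrophages, endothelium, fibroblasts, smooth muscle, tendon, adipocytes, Schwann cells or red cells was called with all libraries by edgeR, DESeq2 or limma-voom. At an unadjusted p below 0.05, 1 macrophage marker was higher and 1 lower, and 1 smooth muscle marker was lower (edgeR). Of the 18143 tested genes, 1340 were higher and 879 lower at that threshold. The part of these cell types in the results was not tested.

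The double KO was also set against the mean of both single KOs, a comparison that leaves the controls out. With all libraries, 26 of 18143 genes were called (0.143%), 17 higher (0.0937%) and 9 lower (0.0496%), and without double KO 1 there were 52 of 18371 (0.283%), 44 higher (0.24%) and 8 lower. Acvr1b was lower in the double KO (-1.09, adjusted p = 0.011, edgeR): it averaged 9.40 CPM there, 13.6 CPM in Acvr1b KO soleus and 29.6 CPM in Tgfbr1 KO soleus. Fkbp5 was lower as well (-0.98, adjusted p = 0.044), with means of 78.8 CPM in double KO, 171 CPM in Acvr1b KO and 141 CPM in Tgfbr1 KO soleus. Tinagl1 (-1.30, adjusted p = 0.0311) and the orphan receptor gene Nr4a3 (-2.34, adjusted p = 0.0478) were lower, and Pak1 (1.07, adjusted p = 0.0172), the glycogen-binding gene Stbd1 (1.44, adjusted p = 0.044), Pfkfb3 (1.43, adjusted p = 0.0345) and Gadd45a (4.85, adjusted p = 0.0494) were higher by the same edgeR test. Sln (0.92, adjusted p = 0.0345) and Ddit4l (0.95, adjusted p = 0.0428) were higher than in the single KOs too. Gadd45b was not called in this comparison (-1.36, adjusted p = 0.0903, edgeR), with means of 7.22 CPM in double KO, 19.4 CPM in Acvr1b KO and 17.6 CPM in Tgfbr1 KO soleus. In the fit without double KO 1, Nr4a3 (-2.30, adjusted p = 0.104) and Gadd45a gave no call, and Stbd1 had a change of 0.86 (adjusted p = 0.036, edgeR). Leaving out 1 of the 12 libraries gave 6 calls without Acvr1b KO 3 or Tgfbr1 KO 3, 8 without Acvr1b KO 2, Tgfbr1 KO 1 or Tgfbr1 KO 4, 10 without Tgfbr1 KO 2, 14 without double KO 3, 15 without double KO 4 and 16 without Acvr1b KO 4. Acvr1b and Pak1 kept their calls throughout, and Tinagl1 lost its call without double KO 3, double KO 4 or Tgfbr1 KO 3 (adjusted p up to 0.0706, edgeR). The calls were lost for 7 of the 12 libraries left out for Sln (adjusted p up to 0.0816) and Pfkfb3 (0.0845), for 9 for Fkbp5 (0.0882), Stbd1 (0.0891) and Gadd45a (0.385 without double KO 1, where its log2 fold change was 0.58), for 10 for Ddit4l (0.0845) and for 11 for Nr4a3 (0.104, edgeR).

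The effect of the double KO in soleus was compared with that in gastrocnemius of the same mice by the interaction of genotype and muscle, with the mouse as a block. It called 258 of 18726 genes (1.38%), 104 with a more positive effect in soleus (0.555%) and 154 with a more negative one (0.822%). Sln had a difference of -3.07 (adjusted p = 0.00211, edgeR): it averaged 56.3 CPM in double KO and 24.8 CPM in control soleus, and 19.8 CPM in double KO and 0.951 CPM in control gastrocnemius. Sln was higher in the double KO in both muscles, from different control levels. Slc25a30, a mitochondrial carrier, had a difference of 2.40 (adjusted p = 8.04e-05, edgeR), with 7.01 CPM in double KO and 32.5 CPM in control gastrocnemius and 3.68 to 8.30 CPM in double KO and 4.36 to 4.997 CPM in control soleus. The natriuretic peptide receptor Npr3 differed by -2.61 (adjusted p = 0.000533, edgeR), with 32.2 CPM in double KO and 4.40 CPM in control gastrocnemius, while in soleus it was at 45.6 to 53.8 CPM in double KO and 36.7 to 46.7 CPM in control. Actc1 differed by -2.06 (adjusted p = 0.044, edgeR), with 1173 CPM in double KO and 134 CPM in control gastrocnemius. Sln, Slc25a30 and Npr3 kept their calls without any 1 of the 8 mice, and Actc1 lost its call without any mouse but double KO 4 (adjusted p up to 0.126, edgeR). The count of calls became 413, 169 and 153 without double KO 1, 3 and 4. No difference between muscles was called for Fkbp5 (0.62, adjusted p = 0.0851), Foxo1 (0.34, adjusted p = 0.465), Klf15 (-0.01, adjusted p = 0.991) or Gadd45b (-0.17, adjusted p = 0.863) by edgeR, which does not show that they respond alike.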

How the data were processed

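The authors ran featureCounts 2.0.1 on the reverse strand (setting 2) with Ensembl release 102 gene models on GRCm38, per the file headers, and the deposited values are estimated counts; reads with several alignments were split as fractions, so 18.6% of the values used were not whole (tolerance 1e-06). Per the submitters' processing notes, cutadapt, HISAT2, FastQC 0.11.9 and DESeq2 were among their tools. Counts were rounded, scaled by TMM and kept by filterByExpr. Tests were quasi-likelihood tests of edgeR 4.0.16 under R 4.3.3 (robust, 2-sided, Benjamini-Hochberg over all tested genes, threshold 0.05) in 1 fit of the 16 soleus libraries, again without double KO 1, and for the muscle interaction in all 32 libraries with the mouse as a block, since soleus and gastrocnemius of 1 mouse share its animal number. Residual degrees of freedom were 12, 11 and 12, and the common biological coefficients of variation 0.218, 0.164 and 0.142. A standard error is the size of the log2 fold change over the square root of F. CPM uses TMM-scaled totals. A list score averages, over members, log2 CPM with a prior count of 2 less its mean in controls. Myosin shares are counts per exon length and were compared by exact permutation of libraries (scipy 1.17.1). The scripts were tested on simulated data.

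Named genes were the targeted receptors, the 4 adult myosins, Mstn and Inhba; up to 12 rising and 12 falling genes by size, called with and without double KO 1, whose groups did not overlap and whose larger mean reached 5 CPM; up to 5 each way called in 1 fit alone; up to 4 each way for the single-knockout and muscle comparisons; and of each of 50 gene lists up to 4 called members, or the 2 most abundant. Predicted genes were left out. Other genes were named after their values were seen. The members, lists and rule were all chosen with earlier results of these data known. Genes with fractional counts in all 8 libraries, among them the 4 myosins, Plin4, Actc1, Chrna1, P4ha2, Mettl7a3, Wbp1l and Pfkfb3, share reads with similar genes; Mettl7a2 did in 7. The sources name mice as replicates.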

Additional observations from a re-analysis of the deposited data

Results flagged for a closer look

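Of 218 groups of 4 libraries examined with Dixon's test at its 95% critical value, 30 held a library far from the other 3. In 24 of the 30 this library was double KO 1. Many of the genes examined were chosen from these same values, some because their call depended on double KO 1. The usual rate of 1 in 20 therefore does not apply, and the counts only describe these groups. Among named genes, double KO 1 was the high library for Tgfbr1 (57.6 CPM), Mettl7a2 (9.83 CPM), Ypel2 (18.6 CPM), Ncs1 (14.2 CPM), Mt2 (164 CPM), Depp1 (204 CPM), Mt1 (136 CPM), Cdkn1a (322 CPM), Gadd45a (903 CPM), Slc25a30 (8.30 CPM) and Sesn1 (44.3 CPM), and the low one for Myh2 (4815 CPM). Among gene lists its score was high for denervation and neuromuscular junction genes (1.70), proteasome genes (0.39), autophagy and lysosome genes (0.43), Gadd45 and p53 genes (0.69), cytosolic ribosomal protein genes (0.31) and ribosome biogenesis genes (1.41). It was low for slow-fibre contractile genes (-1.57), TCA cycle genes (-0.68), mitochondrial biogenesis regulators (-0.60), dystrophin-glycoprotein genes (-0.77), smooth muscle and pericyte markers (-0.73) and muscle spindle fibre markers (-1.06). Double KO 2 was high for Dkk3 (4.07 CPM) and for Schwann cell and nerve markers (2.03). Control 3 was high for Gadd45b (51.2 CPM), Sphk1 (10.5 CPM), cytosolic ribosomal protein genes (0.12) and Schwann cell and nerve markers (0.95).

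The effect of the double KO differed between soleus and gastrocnemius, by the edgeR interaction test, for 10 named genes. The difference, soleus minus gastrocnemius on the log2 scale, was -3.07 for Sln, -1.52 for Gprc5a, -2.06 for Actc1, -3.48 for Fam174b, -3.14 for Srrm4os and -2.61 for Npr3. It was 2.40 for Slc25a30, 2.24 for Slc2a3, 2.10 for Tmem100 and 2.08 for Dkk3.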

How the results depend on the processing

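Double KO against control gave 131 calls, which became 410 with DESeq2, 989 with limma-voom and sample quality weights, and 35 with only the double KO and control libraries in the fit; leaving out 1 library gave 64 to 308. Without double KO 1 the 308 calls became 555 with DESeq2 and 1042 with limma-voom, and leaving out a further library gave 91 to 269. Leaving out Acvr1b KO 1 together with double KO 1, chosen after seeing the data, gave 499. Against the mean of both single KOs the 26 calls became 261 with DESeq2, 423 with limma-voom and 71 without both of these libraries, and leaving out 1 library gave 6 to 52. The soleus minus gastrocnemius comparison gave 258 calls with the mouse as a replicate block, 137 with no replicate block, and 153 to 413 leaving out 1 mouse. Replicate numbers do not pair the genotypes (correlations of deviations from group means -0.245 to 0.112 for the 4 numbers), and with the replicate number as a block the calls were 100, 210 without double KO 1 and 8 against the single KOs. Other scaling, no filter on low counts, leaving out mitochondrially encoded genes and, for both comparisons with control, leaving out genes near the 2 loci stayed within 1.5 times. Leaving out 1 library, the double KO minus control differences in myosin share, in percentage points, ran between -3.34 and -1.03 for Myh7, -7.64 and -2.08 for Myh2, 6.39 and 13.2 for Myh4, and -8.90 and 1.80 for Myh1, which reversed without double KO 3 (1.042) or 4 (1.80). Of the uncalled named genes, these reversed: Depp1 (0.13) to -1.78 by limma-voom, to -1.97 without double KO 1 and to -1.97 without Acvr1b KO 1 as well (-1.97 to 0.49 leaving out 1 library), Chrna1 (0.40) to -0.48 in each of these (-0.48 to 0.62 leaving out 1 library), and Fst (0.33) to -0.71 by limma-voom and -0.72 without both libraries. The cause of these reversals was not tested, and double KO 1 had a weight of only 0.0759 in limma-voom. Of 64 named called genes, DESeq2, limma-voom and other size factors kept 64, the fit of double KO and control alone 18, the replicate block 45, and leaving out 1 library 35 to 61. The 4 libraries a group and 1 divergent library limit what could be called, and levels below 1 CPM rest on few counts.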

Other observations

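Further genes were lower in the double KO soleus both with and without double KO 1, among them 2 that modify collagen. Of 32 collagen and matrix genes 0 were called with all libraries by edgeR, beside 0.722% of all genes. At an unadjusted p below 0.05, 2 of the 32 were lower, beside 879 of the 18143 tested genes. DESeq2 called 0 and limma-voom 1 lower, beside 228 and 467 of all genes. These counts lay near the shares of all genes. P4ha2, a collagen prolyl hydroxylase, was at 19.3, 18.8, 22.2 and 21.3 CPM in double KO soleus and at 31.3, 30.6, 34.4 and 35.6 CPM in control soleus (log2 fold change -0.69, SE 0.105, adjusted p = 0.00535, edgeR). Plod2, a collagen lysyl hydroxylase, had a log2 fold change of -1.14 (adjusted p = 0.0461, edgeR). Spry4, an inhibitor of receptor tyrosine kinase signalling, was at 10.5, 17.5, 14.1 and 21.3 CPM in double KO soleus and at 29.9, 30.5, 36.5 and 34.5 CPM in control soleus (-1.05, SE 0.167, adjusted p = 0.00739, edgeR). The phosphatase Dusp26 (-0.73, adjusted p = 0.012), the pseudokinase Trib1 (-0.94, adjusted p = 0.035) and the small G protein Rasd1 (-0.9966, adjusted p = 0.0405) were lower as well by edgeR. For all 6 genes the 4 double KO libraries lay below the 4 control libraries. The calls of Plod2 (without double KO 3 or any control, adjusted p up to 0.135), Trib1 (without double KO 2, 3 or 4 or control 2, 3 or 4, 0.0879) and Rasd1 (without double KO 2 or 3 or any control, 0.11, edgeR) were lost. These genes were picked after their values were seen.

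Further calls sat at low or shared counts. Nek10, a NIMA-family kinase, was at 0.268, 0.151, 0.269 and 0.651 CPM in double KO soleus and at 2.42, 3.45, 1.83 and 4.11 CPM in control soleus (-3.14, SE 0.559, adjusted p = 0.0139, edgeR), and it was also lower than in the single KOs (-2.94, adjusted p = 0.0428, edgeR), a call lost for 8 of the 12 libraries left out (adjusted p up to 0.0845). Mettl7a3, within 20 megabases of Acvr1b, rose (2.47, adjusted p = 0.000127, edgeR) with fractional counts in all 8 libraries. Its neighbour Mettl7a2 rose too, with fractional counts in 7 libraries. Among the genes that rose, the RNA-binding protein Cpeb1 was at 21.4, 19.01, 20.4 and 22.8 CPM in double KO soleus and at 12.9, 10.7, 14.9 and 10.8 CPM in control soleus (0.76, SE 0.123, adjusted p = 0.00796, edgeR), and the kinase Wnk2 averaged 127 CPM in double KO soleus and 81.6 CPM in control soleus (0.64, adjusted p = 0.0168, edgeR). The call of Wnk2 was lost without control 1 or 3 (adjusted p up to 0.0615, edgeR). Cpeb1 and Wnk2 have mean levels in control gastrocnemius more than 2-fold above those in control soleus.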
